A study of Mus musculus with 9 samples.

Results

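The genes described here are the heat shock proteins and folding chaperones of the mouse early embryo, chosen by symbol alone: the Hsp70 (Hspa), Hsp110 (Hsph), small Hsp (Hspb), Hsp60 (Hspd), Hsp10 (Hspe) and Hsp90 stems, the J proteins (Dnaja, Dnajb, Dnajc), the CCT chaperonin subunits (Cct with a digit, and Tcp1) and the heat shock factors Hsf1 and Hsf2. The stems gave 83 of the 19359 genes in the deposited table. The rule itself uses no expression value. Hspbp1 and Hspbap1, which bind heat shock proteins, and Hspb11, an intraflagellar transport protein, came in by symbol, as did Cct8l1, a relative of Cct8.

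Poly(A) RNA was sequenced from whole embryos after pronuclear transfer, in which the pronuclei of a zygote are moved into another cytoplast, and the series asks how the timing of the transfer bears on its outcome. SPN embryos had a sham transfer and are the control, EPN embryos were operated early and LPN embryos later, with 3 libraries per group, lettered A to C. Each library came from a pool of 3 embryos collected 34 h after fertilization, and the protocols, identical for all groups, name B6D2F1 females aged 8 to 12 weeks and selective enucleation of germinal-vesicle oocytes to make cytoplasts with abnormal properties. The labels give no embryonic stage, do not say which cytoplast each group received, and do not say whether pools came from separate days or matings, so the p-values reflect the spread among 9 libraries that may differ only technically.

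Chaperones keep unfolded proteins from aggregating and help them fold. Hsp70 binds short exposed stretches of a client in a cycle driven by ATP: J proteins bring the client and speed ATP hydrolysis, and exchange factors such as Hsp110 and Hspbp1 let it go. Hsp90 takes over late-stage clients such as kinases and steroid receptors, small Hsps hold unfolded clients without ATP, Hsp60 with its lid Hsp10 folds proteins in mitochondria, and the ring-shaped CCT complex folds actin and tubulin. Hsf1 is the transcription factor of the heat shock response and is laid down in the oocyte; embryos of Hsf1-null mouse mothers arrest early. Hspa1a and Hspa1b, the stress-inducible Hsp70 genes, are among the earliest genes transcribed by the mouse embryo.

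The libraries held 7611781 to 15559218 reads, so that 1 read was worth 0.0643 to 0.131 CPM (reads scaled to a common library total), and a count of 0 allowed up to 0.193 to 0.394 CPM, for counting error only. SPN A lay apart from the other sham libraries, at -1.96 on the first principal component against -50.6 and -84.6, beside EPN (-29.4 to 7.26). Results are therefore also given without it where that changed a call. The 2-cell-stage marker genes summed to 1792 to 3336 CPM in SPN, 3833 to 5630 in EPN and 4593 to 7224 in LPN, where 5 of 9 were higher than in SPN. The oocyte markers summed to 2882 to 3665, 2339 to 2845 and 1371 to 2039 CPM, where 4 of 11 tested were lower and 1 was higher in LPN than in SPN. Cumulus and granulosa markers summed to 25.1 to 57.8 CPM and sperm markers to 1.8 to 12.3 CPM in all libraries. Of the 9 cumulus and granulosa markers in the table, 6 were high enough to be tested, and Amhr2 made up 53.6% of their mean sum. Foxl2, a defining granulosa gene, was the only 1 of the 9 at 0 in every library. The 2 blood genes in the table, Hba-a1 and Hba-a2, summed to 36 to 100 CPM in SPN, 33.9 to 79.8 in EPN and 9.32 to 26.1 in LPN. The part of these shifts in the results below was not tested. In pooled embryos, fewer cells of a type and less RNA per cell cannot be told apart.

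Between later transfer and sham, a few chaperone genes differed in each direction, and most members did not pass the test. In LPN against SPN, 4 of 78 tested members rose and 2 fell (limma, Benjamini-Hochberg adjusted p under 0.05 over 14876 tested genes; values are log2(CPM + 1), so folds of low genes are drawn towards 1). The members that rose were Dnajb14, Hspbp1, Tcp1 and Dnajc15, and those that fell were Hsf1 and Hspe1. Among all tested genes 8.8% were called, so the members' share of 7.69% is near the background and is not a result about chaperones. Split by direction, 3.26% of all tested genes rose and 5.54% fell. Groups did not overlap for 12 members that were higher and 13 that were lower in LPN, against 11.3% and 16.2% of all tested genes, and 18 members had an unadjusted p under 0.05 (26.9% of all tested genes). With median-of-ratios scaling, which moved the median of all genes from -0.17 to -0.03, the split over all genes turned from 485 higher and 824 lower to 719 and 565, and 7 members rose while 1 fell. Without SPN A, 8 members rose and 4 fell, out of 2753 genes called. Without LPN A or without SPN B 2 members passed, out of 604 and 454 genes called. Without LPN B 1 passed, out of 321. Without SPN C none passed by limma, out of 123 genes called, with 16 members at an unadjusted p under 0.05.

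Early transfer gave no call among the 78 tested members, against a background of 0.108%. Of them, 10 had an unadjusted p under 0.05 (11% of all tested genes), and 12 were higher and 3 lower without overlap, against 7.07% and 7.56%. On these libraries edgeR with the recovered reads also called 0, and DESeq2 called 1, Hsp90ab1, out of 116 genes called. Without SPN A, Hspa8 and Hsp90ab1 were called higher in EPN, out of 458 genes called, 282 of them higher. Comparing LPN with EPN, Dnajc15 rose and Hspa2 fell, against 0.692% and 0.84% of all tested genes (1.53% in all). There 17 members had an unadjusted p under 0.05 (19.3% of all tested genes), and 6 were higher and 16 lower without overlap, against 11.3% and 15.3%. Without SPN A 5 members were called, out of 789 genes called. Without any single EPN library, LPN A or LPN B none was called by limma, with 14 to 19 at an unadjusted p under 0.05. Over all genes those leave-outs called 4 to 108, where the main fit called 228. The comparisons share libraries: SPN serves both transfers, and LPN and EPN each enter 2 comparisons. A library outside a comparison enters it only through the shared estimate of the spread and the set of tested genes. Leaving such a library out keeps the difference as it was, so a call gained or lost that way says nothing further about the groups compared.

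**Figure D1:**
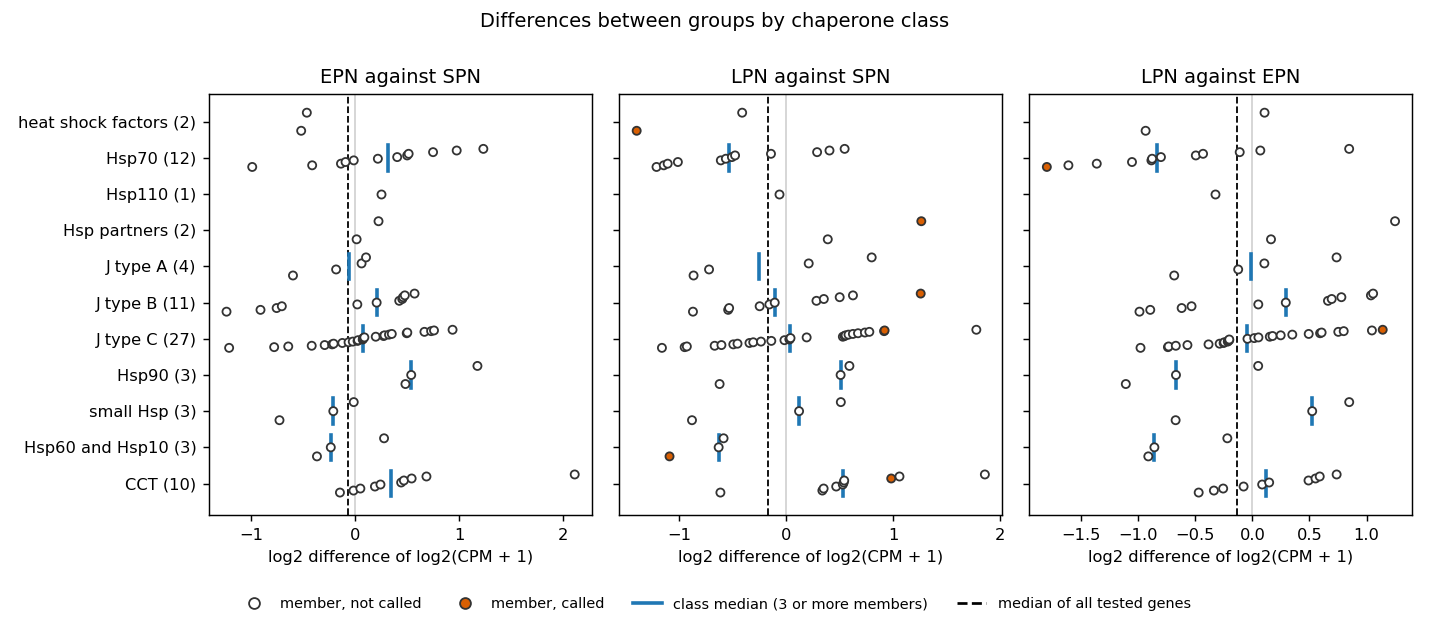
Differences between groups for the 78 tested members, by chaperone class (tested members in brackets). Each point is 1 member on the log2 scale of log2(CPM + 1), filled where called; blue bars are class medians and the dashed line is the median of all tested genes. Hsp70 members lie mostly left of the dashed line in LPN against EPN, and CCT members mostly right of it in LPN against SPN.

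The classes differed in their medians. These are given here relative to the median of all tested genes, which on the log2 scale lay at -0.17 between LPN and SPN, -0.07 between EPN and SPN and -0.14 between LPN and EPN, and they are a description without a test. The CCT class had a relative median of 0.70 in LPN against SPN and 0.41 in EPN against SPN, and 0.70 and 0.31 without Cct8l1. Between LPN and EPN it was 0.25, and 0.28 without Cct8l1. Hsp90, with 3 genes, stood at 0.68 in LPN against SPN, 0.61 in EPN against SPN and -0.53 between LPN and EPN. Both Hsp90 medians with LPN are those of Hsp90ab1, which was at the sham level in LPN A and LPN B (528 and 539 CPM) and at 1431 CPM in LPN C. Hsp90aa1 was also positive in LPN against SPN, and Hsp90b1 was negative (log2 -0.62, not relative to the median). Hsp70 stood at -0.37 for LPN and 0.38 for EPN, each against SPN, and at -0.70 between LPN and EPN. The J proteins, the largest class, stayed near the other genes in LPN against SPN, at -0.09 for type A, 0.06 for type B and 0.20 for type C. In EPN against SPN the 3 types stood at 0.01, 0.28 and 0.15, and between LPN and EPN at 0.13, 0.43 and 0.09. The type B value between LPN and EPN changed sign with the filter, as given below.

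Summed CPM by class, which follows the abundant members, showed the same groups by library. Hsp90 genes summed to 1270 to 1445 CPM in SPN, 2149 to 2738 in EPN and 1508 to 2827 in LPN. Hsp70 genes summed to 1088 to 1209 CPM in SPN, 1507 to 1771 in EPN and 993 to 1248 in LPN, so that EPN stood above both other groups without overlap. The CCT sum was 1668 to 2353 CPM in SPN, 2255 to 2580 in EPN and 2621 to 2906 in LPN, and the LPN libraries lay above all others. This separation rested on Tcp1, at 585 to 757 CPM in LPN and at most 490 CPM elsewhere. Without Tcp1 the LPN sums overlapped those of EPN and SPN. The sum over all 83 members was 8178 to 9900 CPM in SPN, 10807 to 11804 in EPN and 10242 to 11660 in LPN.

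Per kilobase of annotated exon, which allows a comparison between genes, the highest mean levels in SPN were those of Hspb1 (320 CPM per kb), Cct3 (230), Hsp90aa1 (229), Dnajb9 (215) and Hsp90ab1 (207). The place of Hspb1 rested on SPN A: without it Hspb1 was at 199 CPM per kb, below Hsp90aa1 (233) and Cct3 (213). In EPN Hsp90ab1 led with 473 CPM per kb, followed by Hsp90aa1 with 334. In LPN the leading genes were Hsp90aa1 (349), Cct3 (336) and Hsp90ab1 (330), while Hspb1 was at 154 CPM per kb. Without LPN C, Hsp90ab1 was at 212 CPM per kb and Dnajb9 led with 340, ahead of Hsp90aa1 (320). At the other end, 5 members did not pass the filter of 1 CPM in 3 libraries: Dnajb5, Dnajc6, Hspa12b and Hspb3 stayed under 2 CPM, and Hspb8 was at 7.52 CPM in SPN C and at 0 in every other library.

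Hsf1, the regulator, fell in LPN. It was at 102, 129 and 140 CPM in SPN A, B and C, at 110, 68.1 and 92.5 CPM in EPN and at 42.5, 37 and 61.2 CPM in LPN. Every LPN library lay below every SPN and EPN library, while SPN and EPN overlapped. The fall from SPN was 2.64-fold (log2 -1.40, SE 0.32, limma adjusted p = 0.00921), and edgeR called it as well (adjusted p = 0.0369). The limma call was lost without LPN B (adjusted p = 0.0591) and without SPN C (0.0728), and leaving out SPN A left it in place (0.00266). Against EPN the difference was -0.93 (SE 0.32, limma adjusted p = 0.114), and DESeq2 called it (log2 -0.82, adjusted p = 0.039). Hsf2, a related factor, was at 1.15 to 8.09 CPM in SPN, 1.17 to 3.97 in EPN and 0.643 to 4.86 in LPN, and the 3 groups overlapped.

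**Figure D2:**
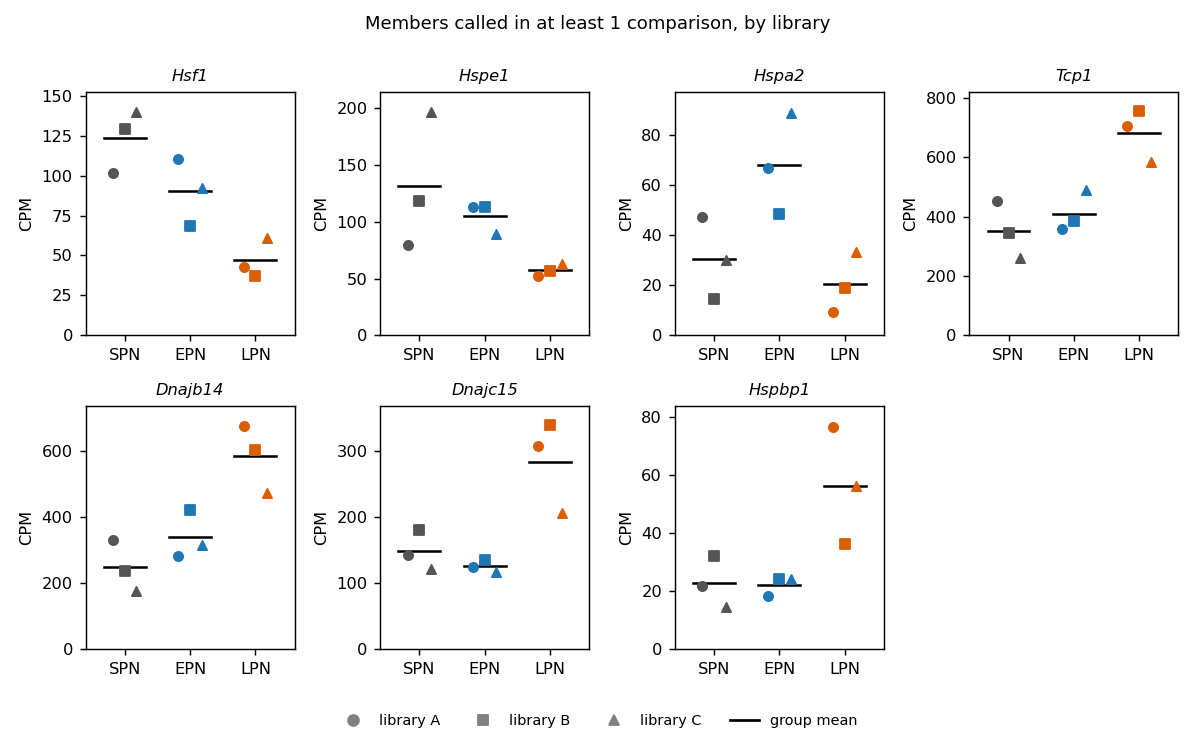
CPM by library for the 7 members called in at least 1 comparison; circles, squares and triangles are libraries A, B and C, and bars are group means of 3 libraries. For Hsf1 and Hspe1 all LPN points lie below the other groups, and for Tcp1, Dnajb14, Dnajc15 and Hspbp1 they lie above.

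The sequences that Hsf1 recognises are inverted repeats of the short unit GAA. As a description of the members' start regions, RefSeq promoter windows (GRCm38.p6, 250 bases before to 50 after each start) were searched for GAANNTTC or TTCNNGAA, each of which reads the same on both strands. At least 1 pair was present in 20 of 67 members with a window (29.9%), against 17% of 27025 genes. Runs of 3 alternating units, GAANNTTCNNGAA or TTCNNGAANNTTC, which contain overlapping pairs, were present in 4 members, Hspd1, Hspe1, Hsph1 and Dnajb6 (5.97%, against 0.662% of all genes). The run of Hspd1 and Hspe1 is 1 shared stretch between their starts, counted for each gene here and among the pairs. A match is a match of letters and not a measured site. The stretches below are shown because they belong to the members with such a run before the start or to the inducible Hsp70 genes; the run of Hsph1 lies after its start, and capitals mark the pairs and runs. Hspd1 and Hspe1 are neighbours transcribed away from each other, and the first sequence is all 215 bases between their start sites (chr1:55087933-55088147, plus strand, in the direction of Hspe1), with capitals starting 89 bases before the Hspe1 start. Hspa1a (chr17:34972157-34972406, minus strand) and Hspa1b (chr17:34959239-34959488, minus strand) differ at 3 of the 250 bases before the start, and the pair lies 104 bases before the start in both. Dnajb6 (chr5:29735648-29735897, plus strand) has its run 46 bases before the more upstream of the starts in the table.
Hspd1-Hspe1: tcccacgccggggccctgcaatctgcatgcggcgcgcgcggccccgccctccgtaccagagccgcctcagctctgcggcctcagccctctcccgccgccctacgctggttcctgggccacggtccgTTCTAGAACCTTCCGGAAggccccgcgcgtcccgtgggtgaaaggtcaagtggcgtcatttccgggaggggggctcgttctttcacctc
Hspa1a: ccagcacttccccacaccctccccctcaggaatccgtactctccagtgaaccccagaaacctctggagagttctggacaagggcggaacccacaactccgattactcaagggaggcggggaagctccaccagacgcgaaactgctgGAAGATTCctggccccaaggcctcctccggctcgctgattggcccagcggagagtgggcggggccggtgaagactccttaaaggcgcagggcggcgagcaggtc
Hspa1b: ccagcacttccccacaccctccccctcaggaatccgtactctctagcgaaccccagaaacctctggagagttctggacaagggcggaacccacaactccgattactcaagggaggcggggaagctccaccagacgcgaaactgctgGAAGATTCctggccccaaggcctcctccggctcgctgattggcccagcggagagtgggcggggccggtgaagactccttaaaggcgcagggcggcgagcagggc
Dnajb6: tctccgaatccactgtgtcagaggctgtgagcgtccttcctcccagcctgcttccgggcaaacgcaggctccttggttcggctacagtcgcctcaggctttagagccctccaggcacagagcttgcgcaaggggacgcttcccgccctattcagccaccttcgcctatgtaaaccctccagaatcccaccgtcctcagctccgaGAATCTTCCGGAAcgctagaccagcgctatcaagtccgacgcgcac

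The members with a pair in the window can be set beside those without. In LPN against SPN the median log2 difference was 0.07 over 18 tested members with a pair and 0.04 over 44 without. In LPN against EPN the medians were -0.33 and 0.03. Of the called members with a window, Hspe1 had a pair and Dnajb14, Dnajc15, Hspbp1, Tcp1 and Hspa2 did not, and none was found in the table for Hsf1. These counts draw nothing about binding.

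The genes of the mitochondrial folding chamber, which share the printed stretch, both had their lowest means in LPN. Hspe1, the Hsp10 lid, was at 79.9, 118 and 197 CPM in SPN, at 113, 113 and 89.2 CPM in EPN and at 52.3, 57 and 62.8 CPM in LPN. All LPN libraries lay below the other 6, and the sham libraries were spread widely. The fall from SPN was 2.13-fold (log2 -1.09, SE 0.33, limma adjusted p = 0.0352). Its level is uncertain as far as reads are shared with near-identical sequence elsewhere in the genome. The call was lost with edgeR (adjusted p = 0.0674), with median-of-ratios scaling (0.0628), and without LPN A, LPN B, SPN B or SPN C (0.081 to 0.248). Hspd1, the Hsp60 barrel, was at 54.5, 81 and 44.1 CPM in SPN, at 72.9, 87.7 and 55 CPM in EPN and at 39.9, 26.3 and 48.4 CPM in LPN. Its LPN libraries lay below EPN and overlapped SPN (log2 -0.63, SE 0.36, adjusted p = 0.253 against SPN). Hspa9, the mitochondrial Hsp70, was at 141 to 219 CPM in SPN, 150 to 230 in EPN and 114 to 140 in LPN, without overlap and not called in LPN against SPN (adjusted p = 0.26).

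The Hsp70 members differed in direction, and none was called in LPN against SPN. Of 12 tested, 9 had a negative and 3 a positive difference, and 4 were lower without overlap (16.2% of all tested genes were). In LPN against EPN 10 of 12 were negative and 7 were lower without overlap, against 15.3% of all tested genes, but only Hspa2 was called. The constitutive cytosolic gene Hspa8 was at 505, 303 and 271 CPM in SPN, at 576, 677 and 816 CPM in EPN and at 438, 476 and 622 CPM in LPN. All EPN libraries lay above SPN, of which SPN A was the highest. The difference was 0.98 (SE 0.28, limma adjusted p = 0.164), and without SPN A it was called (adjusted p = 0.00829). In LPN against SPN Hspa8 had an adjusted p of 0.206, and 0.0247 without SPN A.

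The stress-inducible copies were low throughout. Hspa1a was at 9.17, 3.1 and 7.52 CPM in SPN, 11.1, 9.84 and 6.67 CPM in EPN and 3.41, 0.657 and 3.85 CPM in LPN. Hspa1b was at 16, 22.8 and 19.5 CPM in SPN, 9.83, 15.5 and 18.7 CPM in EPN and 6.17, 6.31 and 11.7 CPM in LPN. Because the genes are near-identical copies, how reads split between them is uncertain. Summed, they gave 25.2, 25.9 and 27 CPM in SPN, 21, 25.4 and 25.3 CPM in EPN and 9.58, 6.96 and 15.6 CPM in LPN. The summed level was tightly grouped in SPN and EPN and lower in every LPN library, by 2.42-fold against SPN (log2 -1.27, SE 0.44), without passing the test (limma adjusted p = 0.0635).

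Hspa2, an Hsp70 best known from male germ cells, was the only member that fell from EPN to LPN. It was at 66.7, 48.6 and 88.7 CPM in EPN, at 9.45, 18.9 and 33.3 CPM in LPN and at 47.4, 14.4 and 29.9 CPM in SPN. LPN lay below EPN without overlap. SPN also lay below EPN without overlap (EPN against SPN: log2 1.23, SE 0.45, limma adjusted p = 0.295) and overlapped LPN. The fall was 3.48-fold (log2 -1.80, SE 0.45, limma adjusted p = 0.0389). It was lost with edgeR (adjusted p = 0.123), with median-of-ratios scaling (0.0549) and when any 1 library of EPN or LPN other than LPN C was left out (0.054 to 0.192). Hspa4l, an Hsp110-type relative, was at 37, 56.5 and 58.5 CPM in SPN and 27.4, 25 and 20.4 CPM in LPN (adjusted p = 0.0832, and 0.0287 without SPN A). Hsph1, the Hsp110 exchange factor, was at 107 to 229 CPM in SPN, 150 to 258 in EPN and 99.5 to 241 in LPN, with the groups overlapping.

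Hspbp1, an exchange factor that releases clients from cytosolic Hsp70, rose in LPN. It was at 21.9, 32.2 and 14.6 CPM in SPN, at 18.4, 24.1 and 24.2 CPM in EPN and at 76.5, 36.3 and 56 CPM in LPN. Each LPN library was above all SPN and EPN libraries. The rise from SPN was 2.4-fold (log2 1.26, SE 0.41, limma adjusted p = 0.0478). This call lay close to the threshold and was lost with edgeR (adjusted p = 0.0619), with a pseudocount of 0.1 CPM (0.0563) and without any 1 library except SPN A (0.0521 to 0.225). Against EPN the difference of Hspbp1 was 1.25 (SE 0.41, limma adjusted p = 0.0954). DESeq2 called it (adjusted p = 0.0154), as did limma with the 6 compared libraries (0.049). Hspbap1, which binds a small Hsp, was at 16.3 to 45.4 CPM in SPN, 19.7 to 35 in EPN and 22.5 to 55.7 in LPN.

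**Figure D3:**
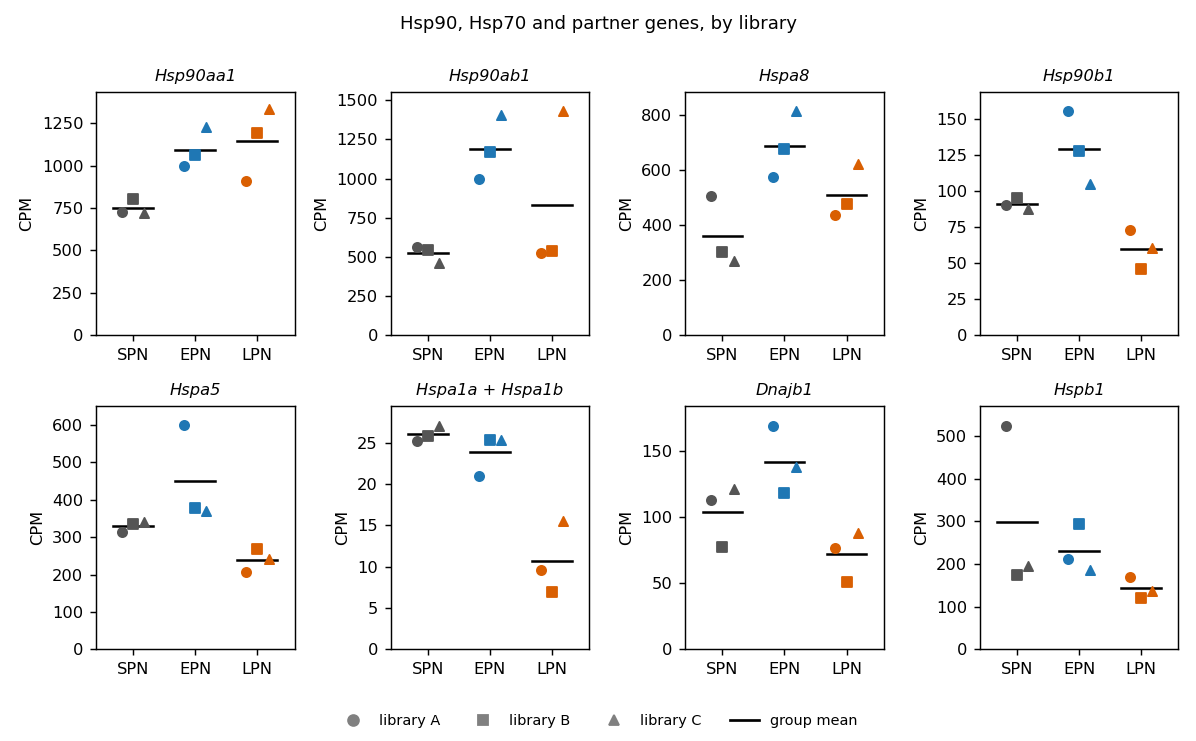
CPM by library for Hsp90, Hsp70 and partner genes, with Hspa1a and Hspa1b summed; symbols are libraries A, B and C, and bars are group means of 3 libraries. Hsp90ab1 and Hspa8 are high in all EPN libraries, LPN C stands alone for Hsp90ab1, and SPN A stands alone for Hspb1.

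Both cytosolic Hsp90 genes were higher in every EPN library than in SPN, and Hsp90aa1 was so in LPN too, without a call by limma. Hsp90ab1, the constitutive form, was at 563, 544 and 461 CPM in SPN, at 995, 1170 and 1407 CPM in EPN and at 528, 539 and 1431 CPM in LPN. EPN stood wholly above SPN, and LPN was split, with LPN A and LPN B at the sham level and LPN C at the EPN level. In EPN against SPN the ratio was 2.26 (log2 1.18, SE 0.31, limma adjusted p = 0.109). DESeq2 called it (adjusted p = 0.0448), as did limma without SPN A (0.0395) or without LPN C (0.0494). LPN C is outside this comparison, and without it the difference stayed at 1.18 while the SE fell to 0.25. Without LPN C, Hsp90ab1 was also called lower in LPN than in EPN (adjusted p = 0.0338). Hsp90aa1, the more inducible form, was at 726, 806 and 721 CPM in SPN, at 999, 1061 and 1226 CPM in EPN and at 907, 1191 and 1335 CPM in LPN. Both transfer groups lay above the sham without overlap, by 1.45-fold (adjusted p = 0.437) and 1.51-fold (adjusted p = 0.137), and DESeq2 called the difference of LPN from SPN (adjusted p = 0.017).

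Hsp90b1, the form of the endoplasmic reticulum (ER), went another way. It was at 90.2, 95.1 and 87.9 CPM in SPN, at 155, 128 and 105 CPM in EPN and at 73, 46 and 60.3 CPM in LPN. The 3 groups did not overlap, and the difference of LPN from EPN was -1.11 (SE 0.31, limma adjusted p = 0.0556). DESeq2 called it (adjusted p = 0.0176). Limma called it with the 6 compared libraries (adjusted p = 0.0353), with the replicate letter as a block (0.0374) and without SPN A (0.0253). It was also called where genes had to average 5 CPM (limma adjusted p = 0.0422). These settings called 395 to 935 genes in all, where the main fit called 228. SPN A is outside this comparison, so without it the difference was unchanged and only the SE fell, to 0.27. Hspa5, the ER Hsp70 known as BiP, showed the same order. It was at 314, 336 and 342 CPM in SPN, 599, 379 and 370 CPM in EPN and 206, 267 and 241 CPM in LPN. Its difference of LPN from EPN was -0.88 (SE 0.27, limma adjusted p = 0.0789). DESeq2 called it (adjusted p = 0.0412), as did limma with the 6 compared libraries (0.0454). Without SPN A this difference was likewise unchanged, with an SE of 0.23 and a limma adjusted p of 0.0334. EPN A was the highest library for both genes. Over the 12 ER members, 11 had a positive difference in EPN against SPN, with a relative median of 0.54, and 4 were higher without overlap, against 7.07% of all tested genes. In LPN against SPN the ER members split 6 and 6.

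**Figure D4:**
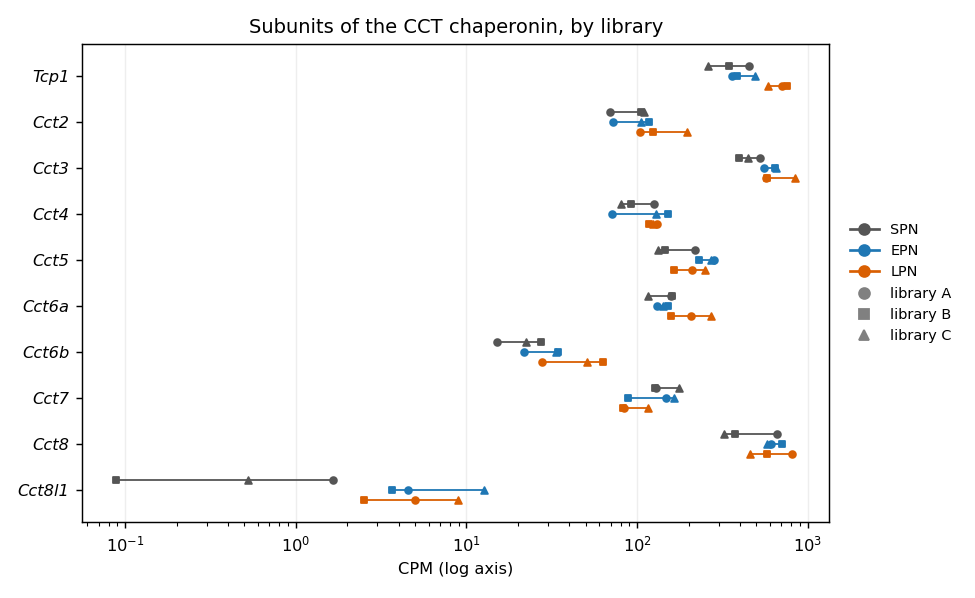
CPM by library on a log axis for the CCT subunit genes and the relative Cct8l1; colours are groups, symbols are libraries and lines span the 3 libraries of a group. LPN lies to the right of SPN for Tcp1, and Cct7 is the subunit whose LPN libraries lie to the left.

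The CCT subunits meet in 1 ring at fixed proportions. Their differences between LPN and SPN were mostly positive, in 8 of 9 genes without Cct8l1, against 6398 of all 14876 tested genes. These 9 count Cct6a and Cct6b separately. Of them 3 were higher without overlap (11.3% of all tested genes were), but only Tcp1 was called. Cct6b was among the 3 by a narrow gap, with SPN up to 27.2 CPM and LPN from 27.8 CPM. Tcp1, the alpha subunit, was at 452, 345 and 259 CPM in SPN, at 357, 384 and 490 CPM in EPN and at 705, 757 and 585 CPM in LPN. All LPN libraries lay above all others, and SPN and EPN overlapped. The rise from SPN was 1.98-fold (log2 0.98, SE 0.27, limma adjusted p = 0.0257). It was lost with edgeR (adjusted p = 0.0707), with the 6 compared libraries alone (0.0508) and without LPN A, LPN B, SPN B or SPN C (0.0683 to 0.17). In the GENCODE M21 annotation Tcp1 shares 571 exon bases with Acat3, on the opposite strand and at most 1.8 CPM here, and 17 with Mrpl18, at 126 to 214 CPM and not called. Whether counting used strand is not stated.

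The other abundant subunits kept closer together. Cct3 was at 523, 395 and 449 CPM in SPN, 554, 644 and 654 CPM in EPN and 571, 578 and 846 CPM in LPN. Both transfer groups lay above the sham without overlap (LPN against SPN: log2 0.53, SE 0.26, adjusted p = 0.194). Cct8 was at 663, 374 and 325 CPM in SPN, 612, 706 and 580 CPM in EPN and 812, 577 and 456 CPM in LPN; SPN A lay inside the other groups, and without it Cct8 was called higher in LPN (adjusted p = 0.0372). Cct7, singled out after its values were seen, was the exception, at 129, 128 and 176 CPM in SPN and 84.2, 82.1 and 115 CPM in LPN (log2 -0.62, SE 0.31, adjusted p = 0.197). Cct8l1, a Cct8 relative outside the known ring, was at 1.65, 0.0886 and 0.525 CPM in SPN, 4.55, 3.67 and 12.7 CPM in EPN and 5.01, 2.5 and 8.96 CPM in LPN, low values that were not called in the 3 comparisons. Without SPN A it was called higher in LPN than in SPN (log2 2.2, adjusted p = 0.0337), as it was by DESeq2 (adjusted p = 0.0288).

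Among the J proteins, 1 type B and 1 type C gene rose in LPN. Dnajb14, an ER membrane J protein that works with cytosolic Hsp70 in clearing misfolded proteins, was at 331, 238 and 177 CPM in SPN, at 283, 422 and 317 CPM in EPN and at 675, 603 and 472 CPM in LPN. LPN lay above every other library. The rise from SPN was 2.39-fold (log2 1.26, SE 0.28, limma adjusted p = 0.00801), the smallest adjusted p of any member, and edgeR called it (adjusted p = 0.0486). The call was lost without SPN C (adjusted p = 0.0851) and kept in each of the other leave-outs.

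Dnajc15, a J protein of the inner mitochondrial membrane, rose in LPN against both other groups. It was at 142, 181 and 121 CPM in SPN, at 125, 134 and 117 CPM in EPN and at 307, 339 and 206 CPM in LPN. SPN and EPN shared a range that all LPN libraries exceeded. The rise was 1.89-fold against SPN (log2 0.92, SE 0.29, limma adjusted p = 0.042) and 2.21-fold against EPN (log2 1.14, SE 0.29, adjusted p = 0.0393). With edgeR the adjusted p was 0.0615 and 0.088. The call against SPN was lost without any single library except SPN A and LPN C (0.0519 to 0.19), and that against EPN without any EPN library, LPN A or LPN B (0.0681 to 0.2).

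The remaining J proteins named by rule did not pass. Dnajb1, the cytosolic partner of Hsp70 induced by stress, was at 113, 77.7 and 121 CPM in SPN, 169, 118 and 138 CPM in EPN and 76.9, 51 and 88.2 CPM in LPN. Its LPN libraries lay below EPN without overlap (log2 -0.99, SE 0.31, limma adjusted p = 0.0877). DESeq2 called it (adjusted p = 0.0455), as did limma with the replicate letter as a block (0.0499). Without SPN A, which is outside this comparison, the difference was unchanged, with an SE of 0.28 and a limma adjusted p of 0.044. Dnajb9, a BiP partner of the ER, ran from 253 CPM in SPN C to 830 CPM in SPN A, against 643 to 756 in EPN and 559 to 836 in LPN, and was called higher in LPN only without SPN A (adjusted p = 0.014). Dnaja2, a cytosolic type A protein, was at 366 to 531 CPM in SPN, above EPN (291 to 335) and LPN (245 to 321), with adjusted p = 0.0806 in LPN against SPN and 0.0125 without SPN A. Dnaja1, its close relative, overlapped between groups, at 299 to 552, 355 to 475 and 426 to 450 CPM.

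Other J proteins differ in place and task. Dnaja3, of mitochondria, was at 41.4 to 51.5 CPM in SPN, 32.8 to 63.2 in EPN and 58.3 to 124 in LPN. In LPN against SPN its limma adjusted p was 0.145, and DESeq2 called it (adjusted p = 0.031). Dnajc5g, a cysteine string protein, was at 4.37 to 6.88 CPM in SPN, 1.95 to 27.8 in EPN and 16.5 to 26.7 in LPN (adjusted p = 0.062; called with median-of-ratios scaling, 0.0459). Dnajc21, of ribosome assembly, and Dnajc8, of the spliceosome, were abundant and overlapped between groups, with adjusted p = 0.956 and 0.978 in LPN against SPN. Dnajc21 was at 203 to 396 CPM in SPN and 279 to 410 in LPN, and Dnajc8 at 174 to 260 and 171 to 266 CPM. Over the 27 tested type C genes, 15 had a positive and 12 a negative difference in LPN against SPN, and 17 and 10 in EPN against SPN. Dnajb6, whose upstream run is printed above, was at 218 to 345 CPM in SPN and 283 to 442 in LPN (adjusted p = 0.256).

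The small Hsps were 1 abundant gene and several scarce ones. Hspb1 was at 523, 175 and 195 CPM in SPN, at 212, 294 and 185 CPM in EPN and at 170, 121 and 137 CPM in LPN. SPN A was far above the other sham libraries, and all LPN libraries lay below all SPN libraries (log2 -0.88, SE 0.33, limma adjusted p = 0.0843). Hspb6 was at 2.21 to 12.8 CPM in SPN, 4.84 to 7.03 in EPN and 6.31 to 13.2 in LPN.

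**Figure D5:**
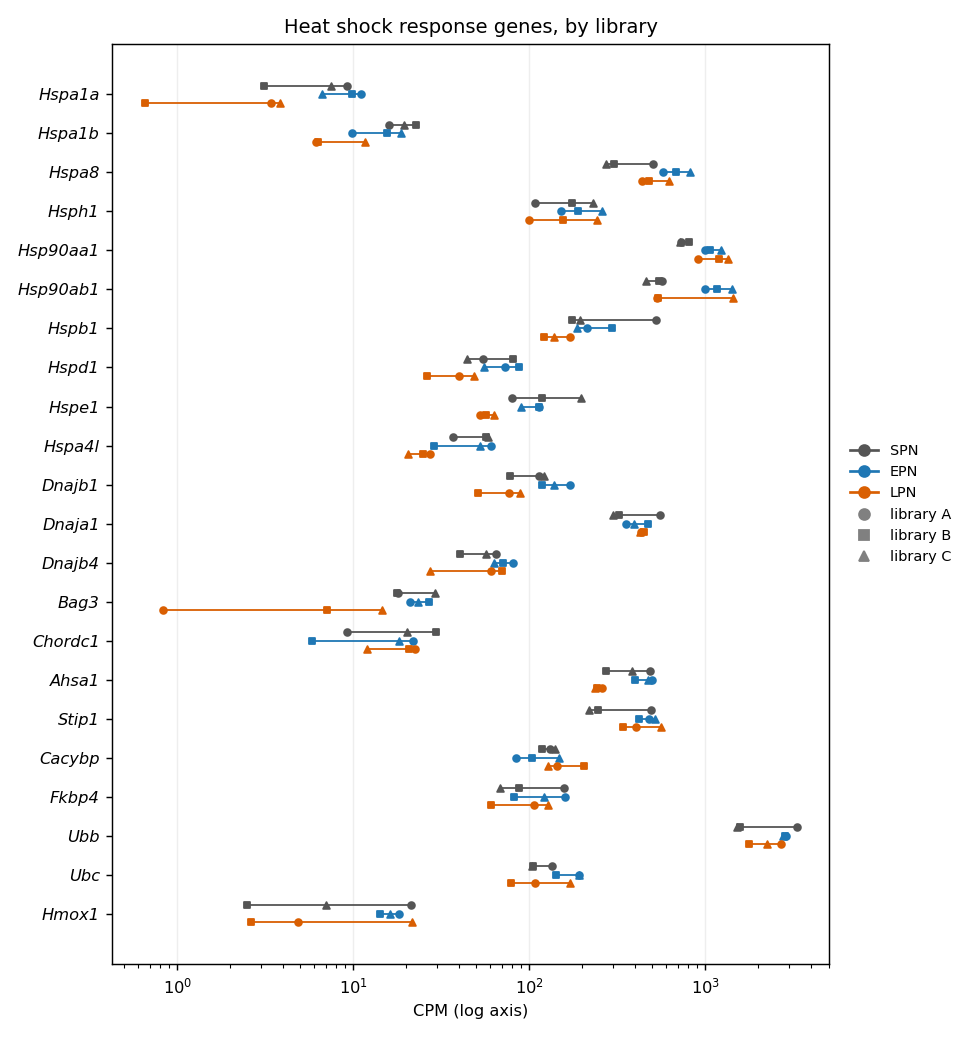
CPM by library on a log axis for 22 genes known to be induced by heat shock through Hsf1; colours are groups, symbols are libraries and lines span the 3 libraries of a group. LPN lies left of EPN without overlap for 9 genes, among them Bag3, Ahsa1, Hspe1 and Dnajb1.

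Beyond the members, 22 genes known to be induced in the heat shock response (13 of them members) were counted. In LPN against SPN 2 of 22 fell, Hspe1 and Bag3, and none rose; this share of 9.09% is near the 8.8% of all tested genes called (5.54% lower). In EPN against SPN none was called and 16 were positive. In LPN against EPN 18 were negative and 9 lower without overlap, against 15.3% of all tested genes, but none was called by limma, while 8 were lower at an unadjusted p under 0.05 (11.5% of all tested genes). The relative medians were 0.08, 0.36 and -0.50. Bag3, an exchange factor that links Hsp70 to autophagy, was at 18, 17.6 and 29 CPM in SPN, at 20.9, 26.9 and 23.3 CPM in EPN and at 0.836, 7.09 and 14.6 CPM in LPN. It fell 3.58-fold from SPN (log2 -1.84, SE 0.57, limma adjusted p = 0.041). The list held both falling and higher genes, since Hspa8 and Hsp90aa1 had positive differences in LPN against SPN.

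The partner lists had few calls, all in LPN against SPN. Of 26 Hsp90 cochaperones 2 fell: Cdc37l1, a relative of the kinase adaptor Cdc37 (61.8, 124 and 123 CPM in SPN, 39, 42.4 and 44.3 CPM in LPN, log2 -1.21, adjusted p = 0.0254), and Nudcd3, which stabilises dynein chains. Nudcd3 was at 19.3, 47.3 and 63 CPM in SPN and 11.9, 10.6 and 10.6 CPM in LPN (log2 -1.73, adjusted p = 0.0191). For both genes SPN A lay between the other sham libraries and LPN. Of 15 Hsp70 cochaperones, only Bag3 fell and none rose. Of 15 tested prefoldin and CCT partners 1 rose, Pdrg1, a subunit of a prefoldin-like complex (184, 158 and 125 CPM in SPN, 262, 290 and 347 CPM in LPN, log2 0.95, adjusted p = 0.0377), and 13 of 15 were positive. Of 6 tubulin folding cofactors 1 rose, Tbce (9.31, 9.21 and 6.91 CPM in SPN, 28.2, 27.6 and 23.4 CPM in LPN, log2 1.54, adjusted p = 0.0385). Of 22 ER folding genes 1 fell, the oxidase Ero1b (19.5, 49.6 and 48.9 CPM in SPN, 10.9, 9.98 and 16.7 CPM in LPN, log2 -1.49, adjusted p = 0.0302). Of 12 further mitochondrial folding and protease genes none was called and 11 were positive in LPN against SPN. Apart from the 6 tubulin cofactors, where 1 call is 16.7%, the shares called in these lists (0% to 7.69%) lay below the 8.8% called over all tested genes.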

How the data were processed

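The build was GRCm39 and the tools named were HISAT2 2.2.1, Trim Galore 0.6.7, edgeR and R 3.3.3, per the submitters' processing notes; counter and annotation are not given in the sources used here. What the authors deposited is CPM per gene for 9 libraries. Of these values 100% were whole multiples of 1 read within a tolerance of 0.01 reads, so whole reads were recovered. As alternatives on them, edgeR 4.0.16 called 477 genes between LPN and SPN, 0 between EPN and SPN and 17 between LPN and EPN, and DESeq2 1.42.0 called 1890, 116 and 935, where limma called 1309, 16 and 228.

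The members and lists were chosen with earlier results of these data known. Genes reaching 1 CPM in 3 or more libraries were fitted on log2(CPM + 1) in 1 limma model of 3 group means (limma 3.58.1, R 4.3.3, trend; 6 residual and 25.9 prior degrees of freedom). Tests are two-sided, each SE is that of the contrast, and p-values were adjusted over all tested genes. The pipeline was tested on simulated data.

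Members were named if called, fixed by symbol, among the 2 most abundant of a class, or among the 2 with the smallest p in LPN against SPN; list genes were named only if called. Others are named as such or where a printed sequence or a limit turns on them. Exon lengths and overlaps come from GENCODE M21 (GRCm38). No protein sequences were used here. Hspa14 had values identical to Gm45902 in every library, so its reads cannot be assigned to 1 of them. Members not named enter only the counts; the values of 1 of them, and a class median that rests on it, are not reported here.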

Additional observations from a re-analysis of the deposited data

How the results depend on the processing

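There were 21 alternatives per comparison, of which the 2 that sum near-identical gene copies were chosen after seeing the data. The main counts of called members were 6 for LPN against SPN, 0 for EPN against SPN and 2 for LPN against EPN. In that order, DESeq2 called 12, 1 and 7. Over the leave-outs of 1 library the counts ran from 0 to 12, 0 to 2 and 0 to 5. The calls over all genes there ran from 123 to 2753, 0 to 458 and 4 to 789. For LPN against SPN, 2 members were called without a filter and 2 with edgeR, both times Hsf1 and Dnajb14, and 3 with the 6 compared libraries. Over all genes these settings called 494, 477 and 772. For LPN against EPN, 0 were called with a pseudocount of 0.1 CPM, without a filter or with edgeR (17, 17 and 18 at an unadjusted p under 0.05), 1 with median-of-ratios or TMM scaling, and 5 with the 6 compared libraries. In the same order, these settings called 62, 0, 17, 217, 172 and 588 genes in all. Same-letter libraries deviated together weakly at most (correlations -0.02 to 0.09, and -0.0996 to 0.096 for different letters). The letters were therefore not treated as pairs, but whether they mark a shared day or mating cannot be told from this. With the replicate block the counts of members were 6, 0 and 4, adding Dnajb1 and Hsp90b1 in LPN against EPN. Over all genes the block gave 1644, 25 and 480 calls, where the main fit gave 1309, 16 and 228.

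Most relative class medians moved by less than 1 SD of a difference of 2 libraries, a yardstick set after seeing the data. It replaced the SD of 1 group, under which more medians counted as moved. Staying under this wider yardstick does not show that a median is stable. Hsp90 in LPN against SPN ran from 0.30 (without LPN C) to 0.90 over the leave-outs, J type C in EPN against SPN from 0.10 to 0.29, and J type B in LPN against EPN from 0.18 to 0.47. J type B in LPN against EPN was 0.26 with a pseudocount of 5 CPM, 0.19 with the 6 compared libraries and -0.38 where members had to average 5 CPM, which leaves fewer genes; small Hsp stood at 0.079 under that filter. Medians of Hsp70, Hsp90 and CCT kept their sign in all comparisons. Both signs occurred for J type A throughout, J type B in both LPN comparisons, J type C between LPN and EPN, and small Hsp against SPN, among the classes reported here. For 33 named members, 77 of 2070 alternative values changed sign, none of them called. No alternative varied the depth, so what it limits was not tested.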
